A study of Homo sapiens with 6 samples.

Results

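The interferon regulatory factors (IRFs) are transcription factors that share a DNA-binding domain of the same fold. The genes IRF1, IRF2, IRF3, IRF4, IRF5, IRF7, IRF8 and IRF9 were taken by symbol from the deposited gene table, which gave 8 of its 26485 genes. RNA came from THP1 cells, a human monocytic acute myeloid leukemia line with an MLL fusion, in 3 independent experiments. In each, cells received withaferin A (WFA), a steroidal lactone of the plant Withania somnifera, or its solvent DMSO for 6 h. This gave 3 DMSO and 3 WFA libraries, none of them carrying any further treatment or genetic change. The WFA dose reads 1 mM in the sample labels and 1 µM in the methods. All libraries are of 1 cell line, and the effect of a single dose and a single time was measured.

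IRFs bind GAAA repeats. Such repeats make up the interferon-stimulated response element (ISRE), and most family members also bind next to a partner factor. Latent IRF3 and IRF7 are phosphorylated downstream of nucleic acid sensors and turn on type I interferon genes, and IRF5 acts downstream of Toll-like receptors on inflammatory cytokine genes. Secreted interferon then signals to IRF9, which joins STAT2 in the ISGF3 complex. IRF8 and IRF4 are restricted largely to blood cells, where they pair with the ETS factor PU.1, the product of SPI1. IRF8 is known for its role in the development of monocytes and dendritic cells.

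Read counts summed to between 11006035 and 13872810 per library. No library was a duplicate of another, since within a group the chi-square over genes, divided by their number, was 6.03 to 11.2, where sampling noise alone gives about 1. All 10 monocyte markers had counts, and their summed level was 2580 to 3120 CPM (counts scaled to a common library total of 1e6) in DMSO and 2400 to 3150 CPM in WFA. Of the 9 tested, 1 was called higher and 3 were called lower with WFA. Epithelial and fibroblast markers summed to 2.50 to 2.61 CPM in DMSO and 11.0 to 14.8 CPM in WFA, with KRT19 and COL1A2 at 0 and 1 of 2 tested markers called higher, and T and NK cell markers to 9.92 to 12.2 CPM and 8.58 to 15.2 CPM. Of 12854 genes that passed a filter on low counts, 25.8% were called higher with WFA and 24.7% were called lower by edgeR's quasi-likelihood test at an adjusted p under 0.05. WFA replicate 2 was the WFA library nearest to the DMSO mean for 48.4% of the 6489 called genes.

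Promoter sequences are shown for 4 members that were called between the groups, to place the family's own binding letters and those of STAT factors at its own genes. They were chosen because they hold such letters. No window was available for IRF2, IRF3 and IRF7, so those genes were not searched. The table's 3 other IRF5 windows and its IRF4 window hold neither motif, and its second IRF8 window overlaps the one shown. They are RefSeq windows on GRCh38.p14 that run from 250 bases before to 50 bases after an annotated start, 5′ to 3′ on the gene's strand. Capitals mark each match, on either strand, to the gamma-activated sequence TTCNNNGAA, which STAT dimers bind, or to the IRF core AANNGAAA.
IRF8: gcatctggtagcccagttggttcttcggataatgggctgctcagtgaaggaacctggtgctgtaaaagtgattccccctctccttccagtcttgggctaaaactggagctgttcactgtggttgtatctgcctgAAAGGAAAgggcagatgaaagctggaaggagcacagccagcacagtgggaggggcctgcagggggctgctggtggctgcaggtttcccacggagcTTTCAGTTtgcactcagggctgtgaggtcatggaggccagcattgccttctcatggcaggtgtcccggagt
IRF5: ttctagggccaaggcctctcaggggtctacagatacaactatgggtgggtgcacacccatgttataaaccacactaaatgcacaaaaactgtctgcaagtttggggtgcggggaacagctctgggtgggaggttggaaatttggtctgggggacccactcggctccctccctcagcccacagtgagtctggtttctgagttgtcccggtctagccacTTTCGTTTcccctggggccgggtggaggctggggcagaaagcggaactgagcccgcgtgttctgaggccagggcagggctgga
IRF1: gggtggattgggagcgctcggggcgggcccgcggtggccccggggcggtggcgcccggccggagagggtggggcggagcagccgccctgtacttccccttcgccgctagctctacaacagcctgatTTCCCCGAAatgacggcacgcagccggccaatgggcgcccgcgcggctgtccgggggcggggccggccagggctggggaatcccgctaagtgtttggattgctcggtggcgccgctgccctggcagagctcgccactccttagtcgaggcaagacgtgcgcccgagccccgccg
IRF9: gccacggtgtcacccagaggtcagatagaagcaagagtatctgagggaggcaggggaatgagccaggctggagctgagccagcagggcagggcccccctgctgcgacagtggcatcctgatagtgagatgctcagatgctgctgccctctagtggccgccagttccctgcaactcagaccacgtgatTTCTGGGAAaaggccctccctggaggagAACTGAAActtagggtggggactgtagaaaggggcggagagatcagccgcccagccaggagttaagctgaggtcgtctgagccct
The IRF8 window lies at chr16:85902580-85902879 on the plus strand. Its start is in intron 1 of the principal GENCODE transcript, 4027 bases downstream of the gene's first base, so it is not the window of that transcript. It holds an IRF core at -116 and another at -21 from the start. The IRF5 window lies at chr7:128940420-128940719 on the plus strand, with a start 2 bases before the first base of a principal GENCODE transcript and in intron 1 of the other principal transcripts, and holds an IRF core at -33. The IRF1 window lies at chr5:132490724-132491023 on the minus strand, with its start in exon 1, and holds a gamma-activated sequence at -124. The IRF9 window lies at chr14:24161015-24161314 on the plus strand, with its start in exon 1, and holds a gamma-activated sequence at -63 and an IRF core at -35.

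Both sets of letters also occur at many other genes. Among 35116 RefSeq windows of this length, 7.7% hold TTCNNNGAA and 22.8% hold AANNGAAA. The ISRE, searched as a pair of GAAA repeats with any 2 bases between them and found in 3.6% of windows, was in none of the windows of IRF1, IRF4, IRF5, IRF8 and IRF9. The letters AACTG, which c-MYB can bind, occur in 39.7% of windows. They were present 3 times in the printed IRF8 window, 2 times in those of IRF5 and IRF9, and not in that of IRF1. A second MYB form, AACGG, occurs in 19.7% of windows and was in none of the windows of IRF1, IRF4, IRF5, IRF8 and IRF9. The AACTG at -18 in the IRF8 window overlaps the IRF core at -21, and the IRF core of IRF9 at -35 contains another. A match is a description of the letters and was not tested as a site.

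Of the 8 members, 7 passed the filter and IRF7 did not. With WFA, IRF2, IRF9, IRF1 and IRF4 were called higher and IRF8 and IRF5 were called lower, while IRF3 was not called. Thus 6 of 7 were called, beside 50.5% of all tested genes. The members called higher are 4 of 7, beside 25.8% of all tested genes, and those called lower are 2 of 7, beside 24.7%. The 3 WFA values lay wholly above or wholly below the 3 DMSO values for each of the 7 tested members, beside 58.1% of all tested genes. IRF4 passed the filter only through the group in which it was higher. Without it, 5 of 6 were called, 3 higher and 2 lower, and the groups of all 6 did not overlap. By exact permutation of the libraries (two-sided), p was 0.1 for each, and 3 libraries against 3 can reach no lower p. The permutation did not keep the pairing of libraries by experiment.

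**Figure D1:**
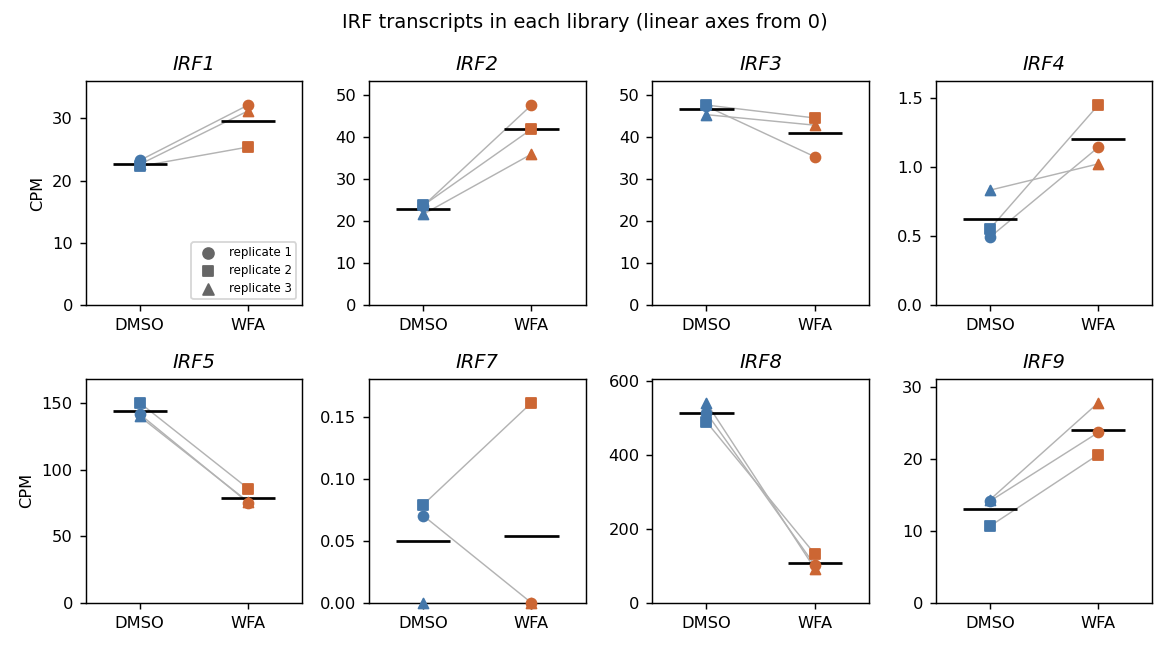
CPM of each IRF gene in each library on linear axes from 0, with lines joining libraries of 1 experiment and black bars at the group means. IRF8 went from 489 to 541 CPM in DMSO to 92.2 to 132 CPM in WFA, and IRF2 and IRF9 were higher in all WFA libraries.

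IRF8 (chr16:85898803-85922609, plus strand, GENCODE 29 on GRCh38) was the most abundant member and changed most among the 7. Its level was 514, 489 and 541 CPM in DMSO replicates 1, 2 and 3, and 102, 132 and 92.2 CPM in the WFA replicates. Every WFA library was thus far under every DMSO library, with the WFA value of replicate 2 the highest of the 3. The log2 fold change was -2.24 (SE 0.12, adjusted p = 2.03e-09, edgeR's quasi-likelihood test), which left 21.1% of the DMSO level. Only 50 of the 12854 tested genes, or 0.389%, had a lower log2 fold change. Within experiments the log2 differences were -2.33, -1.89 and -2.55. The microRNA gene MIR6774 overlaps 70 bases of IRF8 and held at most 9 counts in a library, against 991 to 7304 for IRF8.

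Dendritic cells are a lineage that depends on IRF8. Of 9 listed dendritic cell markers, 5 had at most 3 counts in every library, among them CLEC4C, IL3RA and LILRA4 at 0. Of the 3 that could be tested, 2 were called lower, beside 24.7% of all tested genes. The 9 markers had a summed level of 138 to 163 CPM in DMSO and 66.8 to 96.8 CPM in WFA. Their part in the IRF8 result was not tested. In RNA from whole cultures, fewer cells that express a gene and less RNA per cell cannot be told apart.

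IRF4 (chr6:391739-411447, plus strand), the closest relative of IRF8 and a factor of lymphocytes and plasma cells, was near the bottom of the measured range. It had 7, 7 and 10 counts in DMSO and 14, 18 and 11 counts in WFA, which is 0.492, 0.553 and 0.833 CPM against 1.14, 1.45 and 1.02 CPM. All WFA values lay above all DMSO values, although WFA replicate 3 and DMSO replicate 3 stood close to each other. The log2 fold change was 0.96 (SE 0.36, adjusted p = 0.0374, edgeR's quasi-likelihood test). Only 1.82% of tested genes had a lower average level. The call was lost with DESeq2 (adjusted p = 0.198), with library totals in place of TMM (edgeR adjusted p = 0.0566), without a filter (edgeR adjusted p = 0.0672) and in 4 of the 6 fits that left out a library. These were the fits without DMSO replicates 1 and 2 and WFA replicates 1 and 2, with edgeR adjusted p-values of 0.134, 0.117, 0.0624 and 0.136. B and plasma cell markers summed to 6.33 to 7.03 CPM in DMSO and 9.86 to 11.3 CPM in WFA. Of the 10 markers, VPREB1 and MZB1 were at 0, 3 were called higher and 1 lower, and their part in the IRF4 result was not tested.

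IRF5 (chr7:128937612-128950035, plus strand), which drives inflammatory cytokine genes downstream of Toll-like receptors, was the other member called lower. Levels were 141.6, 150.1 and 139.9 CPM in DMSO and 75.2, 85.8 and 75.8 CPM in WFA. The 3 DMSO libraries lay close together, as did the 3 WFA libraries, and the groups were far apart. This was a log2 fold change of -0.87 (SE 0.09, adjusted p = 1.14e-06, edgeR's quasi-likelihood test), or 54.9% of the DMSO level. Of all tested genes, 7.07% had a lower log2 fold change. The differences within experiments were -0.91, -0.81 and -0.88, the narrowest range of the called members.

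IRF2 (chr4:184387713-184474580, minus strand) and IRF1 (chr5:132481609-132490798, minus strand) bind the same sites, IRF1 as an activator and IRF2 largely as its antagonist. IRF2 was at 23.6, 23.8 and 21.7 CPM in DMSO and at 47.7, 42.0 and 36.0 CPM in WFA. All WFA values were well above the DMSO values, although they were spread more widely. IRF2 rose by 0.86 on the log2 scale (SE 0.12, adjusted p = 2.47e-05, edgeR's quasi-likelihood test), a 1.82-fold higher level.

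IRF1 was at 23.2, 22.3 and 22.6 CPM in DMSO and at 32.1, 25.4 and 31.2 CPM in WFA. Replicate 2 stood apart among the WFA libraries, close to the DMSO level, with a within-experiment log2 difference of 0.19 against 0.46 in each of the other experiments. WFA changed IRF1 by 0.38 on the log2 scale (SE 0.12, adjusted p = 0.0142, edgeR's quasi-likelihood test), a 1.30-fold higher level. The call was lost without DMSO replicate 2 (0.35, edgeR adjusted p = 0.0511) and without WFA replicate 1 (0.32, edgeR adjusted p = 0.0567). The gene C5orf56 overlaps 7094 bases of IRF1 and had at most 6 counts per library, against 271 to 393 for IRF1. The protein-coding gene AC116366.3, on the opposite strand, overlaps 9190 bases of IRF1 and has no row of its own under that name.

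**Figure D2:**
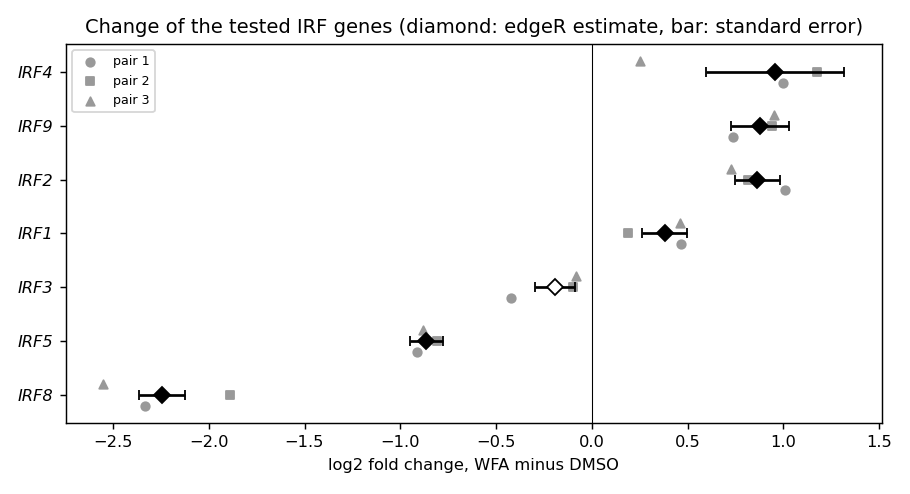
Log2 fold change of the 7 tested IRF genes, WFA minus DMSO, with diamonds and bars for edgeR's estimate and its standard error (open where not called) and grey points for the 3 experiments. IRF8 at -2.24 lies far from the others, which run from -0.87 for IRF5 to 0.96 for IRF4.

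IRF9 (chr14:24161053-24166565, plus strand) is the DNA-binding subunit of ISGF3. It was at 14.1, 10.7 and 14.3 CPM in DMSO and at 23.7, 20.6 and 27.8 CPM in WFA. The lowest value of each group came from replicate 2, and the groups did not overlap. On the log2 scale IRF9 rose by 0.88 (SE 0.15, adjusted p = 0.00019, edgeR's quasi-likelihood test), a 1.84-fold higher level. The 3 experiments differed by 0.74, 0.94 and 0.95. IRF9 lies within the readthrough gene AL136295.5, which has no row of its own under that name.

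IRF3 (chr19:49659569-49665875, minus strand), the latent factor that TBK1 phosphorylates, was at 47.4, 47.7 and 45.4 CPM in DMSO and at 35.4, 44.6 and 42.9 CPM in WFA. The groups did not overlap, but the highest WFA value was close to the lowest DMSO value. The log2 fold change was -0.19 (SE 0.10, adjusted p = 0.137, edgeR's quasi-likelihood test). With library totals in place of TMM it was -0.28 and was called (edgeR adjusted p = 0.0399). BCL2L12, on the opposite strand, overlaps 734 bases of IRF3 and held 123 to 208 counts against 433 to 674. The TruSeq RNA v2 protocol named in the labels does not mark strand, so reads from the overlap cannot be told apart.

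IRF7 (chr11:612553-615999, minus strand), which interferon induces and which amplifies interferon gene expression, had 1, 1 and 0 counts in DMSO and 0, 2 and 0 counts in WFA. All 6 libraries were at or under the floor of 3 counts, so no difference was detectable at this depth. The adjacent genes CDHR5, SCT and DRD4 were at 0 counts, PHRF1 held 9 to 24 counts and DEAF1 held 219 to 383. Other genes that most cells use were also near 0 in these files, with HLA-E and TAP1 at 0 to 1 counts and PSMB8 at 0 to 2 counts. Absent IRF7 transcripts and reads that were not assigned to the gene therefore cannot be told apart.

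Levels of different members were compared as CPM per kb, with the median transcript length of each gene. In DMSO the order was IRF8 at 585 ± 29.5, IRF5 at 105 ± 3.99, IRF3 at 56.9 ± 1.52, IRF2 at 39.3 ± 2.01, IRF1 at 25.6 ± 0.544 and IRF9 at 19.8 ± 3.14 CPM per kb (SD, n = 3). IRF4 at 0.827 ± 0.240 and IRF7 at 0.0316 ± 0.0275 CPM per kb came last. Each neighbouring pair in this order was separated by more than the SDs, although IRF9 stood before IRF1 with the other lengths tried. In WFA the order was IRF8 at 124 ± 23.6, IRF2 at 71.5 ± 9.98, IRF5 at 57.5 ± 4.31, IRF3 at 49.8 ± 5.98, IRF9 at 36.5 ± 5.49 and IRF1 at 33.4 ± 4.12 CPM per kb. IRF2, IRF5 and IRF3, and likewise IRF9 and IRF1, lay within or near each other's spread.

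Summed over the 8 members, the family went from 832 ± 25.7 to 374 ± 24.3 CPM per kb (SD, n = 3). IRF8 made up 70.3% ± 1.38 of the sum in DMSO and 32.9% ± 4.08 in WFA. IRF2 went from 4.73% ± 0.373 to 19.1% ± 2.56 of the sum, and IRF9 from 2.38% ± 0.318 to 9.86% ± 2.09. These shares depend on the length used. With the longest transcript IRF8 made up 66.3% and 31.4%, and with the principal isoform 62.4% and 28.0%, and IRF5 rather than IRF2 then stood second in WFA. IRF8 stood first in both groups with all 3 lengths.

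**Figure D3:**
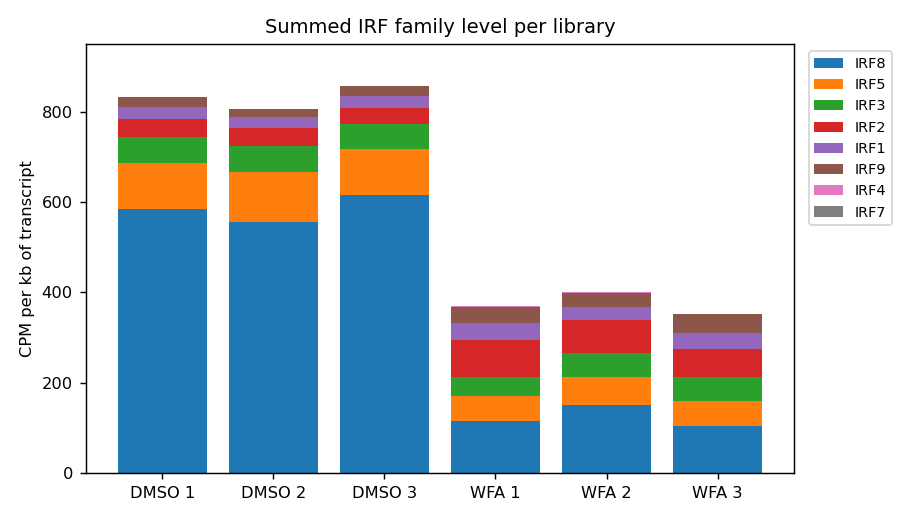
Summed level of the 8 IRF genes in each library in CPM per kb of median transcript length, on a linear axis from 0, with 1 colour per gene. The sum was 832 ± 25.7 in DMSO and 374 ± 24.3 in WFA, and the IRF8 segment accounts for most of the difference in height.

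Ratios of counts within a library do not depend on scaling. The IRF8:SPI1 count ratio was 3.61, 3.14 and 4.74 in DMSO and 1.13, 0.995 and 0.898 in WFA, so IRF8 counts went from well above to about level with those of its partner. On the log2 scale the mean went from 1.91 ± 0.30 to 0.003 ± 0.16 (SD, n = 3). The IRF1:IRF2 ratio was 0.982, 0.937 and 1.04 in DMSO and 0.673, 0.605 and 0.866 in WFA, a log2 difference of -0.48. The IRF8:IRF4 count ratio was 1043, 885 and 650 in DMSO and 89.1, 91.1 and 90.1 in WFA, a log2 difference of -3.19. It rests on 7 to 18 IRF4 counts per library, and IRF4 passed the filter only through the group in which it was higher. The groups did not overlap in these 3 ratios, and exact permutation (two-sided) put p at 0.1 for each, or at 0.133 after Benjamini-Hochberg adjustment over 4 ratios. The fourth ratio, IRF7:IRF3, rests on IRF7 counts at the floor and is not interpreted.

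**Figure D4:**
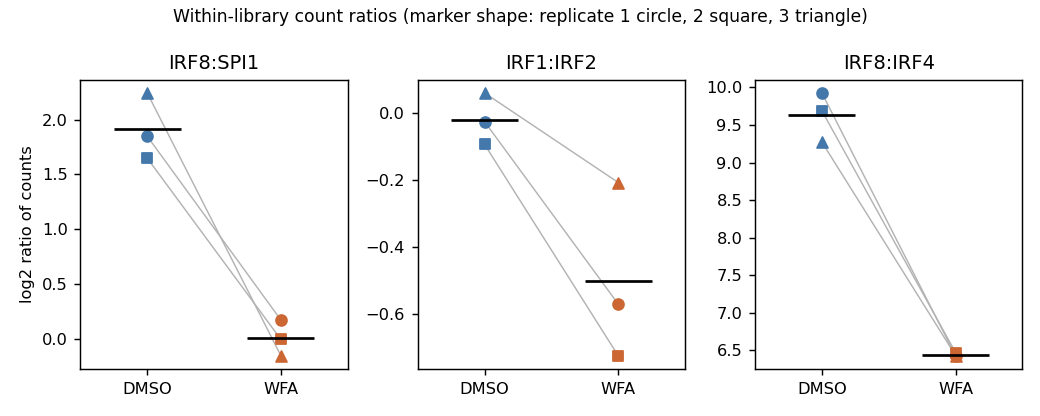
Log2 ratio of counts of IRF8 to SPI1, IRF1 to IRF2 and IRF8 to IRF4 in each library, with lines joining libraries of 1 experiment and black bars at group means (each panel has its own axis, which does not start at 0). All 3 ratios were lower in every WFA library, and IRF8 to IRF4 rests on 7 to 18 IRF4 counts per library.

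Among 22 tested partners and cofactors of IRFs, 4 were called higher (18.2%) and 7 lower (31.8%), beside 25.8% and 24.7% of all tested genes. Their median log2 fold change was -0.13 against 0.02 over all tested genes. STAT2, which joins IRF9 in ISGF3, was at 49.2, 53.1 and 56.9 CPM in DMSO and at 110, 104 and 129 CPM in WFA. Its groups did not overlap, and on the log2 scale it rose by 1.11 (SE 0.10, adjusted p = 4.18e-07, edgeR's quasi-likelihood test).

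Partners of IRF8 gave mixed values. SPIB and BATF, relatives of SPI1 and BATF3, were at 0.42 and 0.25 and were not called (edgeR adjusted p = 0.147 and 0.131). SPI1 had a log2 fold change of -0.34 (SE 0.13, edgeR adjusted p = 0.0461), but its groups overlapped. Its call was lost with upper-quartile normalization (edgeR adjusted p = 0.0581) and without DMSO replicates 1 or 2 or WFA replicates 1 or 3 (edgeR adjusted p from 0.118 to 0.207). BATF3, which pairs with IRF8 in dendritic cells, was at -1.13 (SE 0.30, edgeR adjusted p = 0.00534). ETV6, an ETS repressor reported to bind IRF8, was at -0.78 (edgeR adjusted p = 8.56e-06). IRF2BP2, a corepressor of IRF2, was abundant and went from 702, 683 and 697 CPM in DMSO to 399, 433 and 311 CPM in WFA, while IRF2 itself rose. Its log2 fold change was -0.87 (SE 0.11, edgeR adjusted p = 1.37e-05). NFKB1, which acts beside IRFs at cytokine promoters, was at -0.80 (edgeR adjusted p = 3.88e-06), and the coactivator gene NCOA1 was at 0.68 (edgeR adjusted p = 0.000151).

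Upstream of the family, 27 genes for sensors, adaptors and kinases that activate IRFs were tested. Of these, 11 were called higher (40.7%) and 9 lower (33.3%), beside 25.8% and 24.7% of all tested genes. Their median log2 fold change was 0.22. CXorf21, which encodes the adaptor TASL that recruits IRF5, was at 205, 231 and 189 CPM in DMSO and at 49.8, 49.1 and 35.5 CPM in WFA. Its log2 fold change was -2.21 (SE 0.12, adjusted p = 2.89e-09, edgeR's quasi-likelihood test). Its transporter partner SLC15A4 was at 0.41 (edgeR adjusted p = 0.00792). The receptors that signal through this pair, TLR8 and TLR7, were at -2.24 and -1.46 (edgeR adjusted p = 2.87e-05 and 0.000719), from few reads, with at most 62 counts in a library. TRAF6, a ubiquitin ligase that acts below MYD88, was at 0.81 (edgeR adjusted p = 3.36e-06). The Toll-like receptor adaptor MYD88 was at -0.52 and its kinases IRAK1 and IRAK4 at 0.35 and 0.27 (edgeR adjusted p = 0.000371, 0.00864 and 0.0147). UNC93B1, which delivers these receptors to endosomes, was at 0.04 and was not called (edgeR adjusted p = 0.77), and the kinase gene IKBKB was at -0.29 (edgeR adjusted p = 0.0137). The calls of IRAK1 and IKBKB were lost without DMSO replicate 2 (edgeR adjusted p = 0.0584 and 0.0708), and that of IRAK4 without DMSO replicate 1 and with library totals (edgeR adjusted p = 0.0591 and 0.0764). Of the kinases that phosphorylate IRF3, TBK1 was at 0.42 and IKBKE at -0.92 (edgeR adjusted p = 0.00116 and 0.000389).

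Downstream, genes listed from general knowledge as targets of these factors, or linked to them, were counted in both directions. Of 45 tested ISGF3 targets, 8 were called higher (17.8%) and 17 lower (37.8%), beside 25.8% and 24.7% of all tested genes. Their median log2 fold change was -0.20. BST2, the tether that holds budding virions, rose by 1.89 (edgeR adjusted p = 6.65e-09), and UBE2L6, the conjugating enzyme of ISG15, by 0.88 (edgeR adjusted p = 2.3e-05). CMPK2, a mitochondrial nucleotide kinase, was at -1.57 and the apoptosis gene XAF1 at -1.06 (edgeR adjusted p = 2.15e-06 and 2.22e-05).

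Of 38 IRF1 targets and IRF1-linked genes found in the counts, 23 were tested. Of these, 10 were called higher (43.5%) and 5 lower (21.7%), beside 25.8% and 24.7% of all tested genes. The median log2 fold change was 0.27. That median was 0.0021 with DESeq2, 0.0096 without a filter on low counts and 0.095 without WFA replicate 2. GBP3, a guanylate-binding protein gene, and the caspase gene CASP1 rose by 1.70 and 1.05 (edgeR adjusted p = 3.14e-08 and 1.1e-07). GBP4, of the same family as GBP3, and LMO2 were at -1.36 and -0.84 (edgeR adjusted p = 8.2e-05 and 1.41e-05). The list lacks part of antigen presentation here, since PSMB8, PSMB9, TAP1, HLA-E and HLA-F were among 7 members with at most 3 counts in every library.

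Of 21 tested IRF8 and PU.1 myeloid targets, 5 were called higher (23.8%) and 8 lower (38.1%), beside 25.8% and 24.7% of all tested genes. Their median log2 fold change was -0.07, and -0.20 with DESeq2 or without a filter. NCF1 and CYBB, which encode subunits of the phagocyte NADPH oxidase, were at -1.59 and -0.82 (edgeR adjusted p = 2.4e-05 and 5.72e-05). NCF1 has near-identical pseudogenes, so its counts are uncertain. BTK, a kinase of B cell and myeloid signalling, was at -0.60 (edgeR adjusted p = 5.77e-05) and the cytokine gene IL18 at 0.49 (edgeR adjusted p = 0.00495). The fall of IRF8 to 21.1% was larger than the change of any of these targets.

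**Figure D5:**
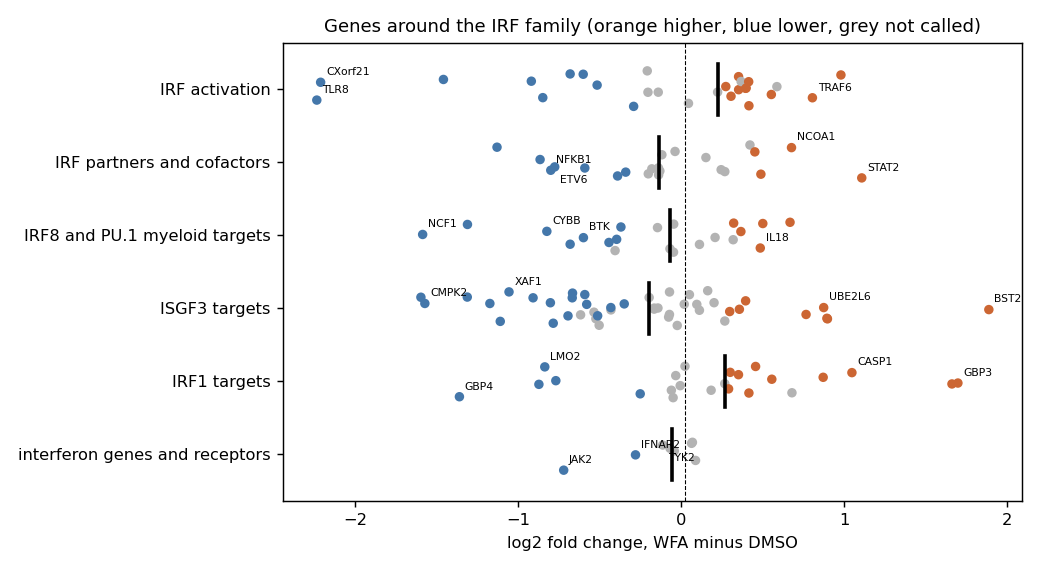
Log2 fold change, WFA minus DMSO, of tested genes in 6 lists around the IRF family, with orange for genes called higher, blue for lower and grey for not called. Black bars mark list medians, from -0.20 for ISGF3 targets to 0.27 for IRF1 targets (0.0021 with DESeq2), and the dashed line marks the median of all tested genes, 0.02.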

How the data were processed

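RNA from THP1 cells after 6 h in DMSO or WFA was sequenced from TruSeq RNA v2 libraries, 3 per group. For each gene the authors deposited unnormalized read counts. Beside them the authors deposited scaled counts per library, rounded to whole numbers and treated here as a score, which were not used. Their own comparison columns (log2 fold changes, p-values, dispersions) were not used either. The submitters' processing notes name bcl2fastq 2.19, Trimmomatic, Bowtie2, Picard, featureCounts, DESeq2 and hg38. The annotation, the strand setting and the treatment of multiply mapped reads are not given in the sources used here.

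Counts were analysed with edgeR 4.0.16 in R 4.3.3, using TMM and the quasi-likelihood test over the 12854 genes that filterByExpr kept at a minimum count of 10, with Benjamini-Hochberg adjustment and a threshold of 0.05. Standard errors were derived from the log2 fold change and its F statistic. CPM values use library sizes summed over the genes that passed the filter and scaled by TMM. Over all genes the libraries held 11006035 to 13872810 counts. Count ratios had 0.5 added to each count on the log2 scale. Coordinates and transcript lengths come from GENCODE 29. The fits were tested on simulated counts in which few genes changed, as many up as down, with no experiment effect. That setting does not cover a change as broad as the one seen here.

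Replicate numbers stand for shared experiments in the labels. Deviations from group means correlated at 0.217, 0.333 and 0.245 between same-numbered libraries and at -0.256 to 0.004 between others, so the numbers pair the samples. The main fit has no block, since the study names a Wald test and no block.

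Members and lists were chosen with earlier results of these data known. From each list the text names the 3 genes with the smallest p-value and up to 2 called in the rarer direction, along with SPI1, STAT2, BATF3 and IRF2BP2. Some genes that this choice covers are not reported here. TLR7, SLC15A4, TBK1, IKBKE, MYD88, IRAK1, IRAK4, UNC93B1, IKBKB, SPIB, BATF and JAK1 were named after their values were seen. Alternatives were the replicate block, DESeq2 1.42.0, other scalings, no filter, other lengths and leaving out each library. The principal isoform length was added after seeing the data.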

Additional observations from a re-analysis of the deposited data

How the results depend on the processing

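Across the alternatives, 339 of the recomputed values were counted as unchanged, while 33 moved, 9 became weaker, 2 reversed and 1 became stronger. Unchanged meant the same direction and side of the threshold for a fold change, and the same sign for a ratio. For a number of called genes it meant staying within a set fold limit, and for a list median or share, staying within the spread. With the replicate number as a block, IRF8 was at -2.26 and IRF3 at -0.20 (edgeR adjusted p = 0.062), and the block changed no call of a member. The blocked fit leaves 2 residual degrees of freedom.

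The call of at least 1 member changed in 7 of 12 settings, while IRF2, IRF5, IRF8 and IRF9 kept theirs in all 12. IRF3 was called with library totals (-0.28). IRF4 was no longer called with DESeq2 (0.94), library totals (0.87) or no filter (0.94). Leaving out 1 library gave 0.80 to 1.20 for IRF4, 0.32 to 0.48 for IRF1 and 2 to 4 members called higher, with 2 without DMSO replicate 2 or WFA replicate 1. The log2 IRF7:IRF3 ratio changed sign and ran from -0.62 to 0.41, with -0.40 without DMSO replicate 3 and -0.62 without WFA replicate 2. The share of IRF8 in DMSO was 66.3% with the longest transcript and 62.4% with the principal isoform, which gave 28.0% in WFA.

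List medians of log2 fold change moved as follows. With DESeq2 they were 0.27 for IRF activation, -0.20 for IRF8 and PU.1 targets and 0.0021 for IRF1 targets, and without a filter 0.28, -0.20 and 0.0096. With library totals they were 0.14 for activation, -0.22 for partners, -0.15 for IRF8 and PU.1 targets, 0.18 for IRF1 targets and -0.14 for interferon genes and receptors. Leaving out 1 library gave 0.18 to 0.28 for activation, -0.16 to -0.017 for IRF8 and PU.1 targets, 0.10 to 0.31 for IRF1 targets and -0.12 to -0.028 for interferon genes and receptors. It also gave 3 to 5 IRF8 and PU.1 targets called higher (3 without DMSO replicate 3 or WFA replicate 2), 5 to 8 ISGF3 targets called higher (5 without DMSO replicate 2 or WFA replicate 1) and 1 to 2 interferon genes and receptors called lower. With library totals 5 ISGF3 targets were called higher. The cause was not tested, other than that DESeq2 and the fit without a filter include more low genes in a list.

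Depth limits IRF4 and IRF7, whose counts were under 20 in every library. Intervals from counts would cover counting error only.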

Other observations

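Interferons themselves were not detectable in these libraries. Of 30 interferon genes and receptor-side genes, 22 had at most 3 counts in every library, among them all listed IFN genes and IFNLR1, and 8 were tested. None of the 8 was called higher and 2 were called lower by edgeR's quasi-likelihood test, beside 25.8% and 24.7% of all tested genes. JAK2, a kinase that interferon gamma receptors use, was at -0.72 (SE 0.09, edgeR adjusted p = 9.92e-06). IFNAR2, a subunit of the type I interferon receptor, was at -0.28 (edgeR adjusted p = 0.0195), a call that was lost without DMSO replicate 1 (edgeR adjusted p = 0.0638) and without WFA replicate 3 (edgeR adjusted p = 0.0895). The receptor kinase genes TYK2 and JAK1 were at -0.11 and 0.06 (edgeR adjusted p = 0.334 and 0.542).

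The genes whose centred log2 CPM lay nearest to that of IRF8 over the 6 libraries, of 11715 compared, were C10orf2, EEF2K and CD3EAP. Their distances were 0.170, 0.229 and 0.236, and their log2 fold changes were -2.19, -2.14 and -2.30. Nearest to IRF1 were CUEDC1, PSMC3IP and TES at distances of 0.0564, 0.0591 and 0.0735, with log2 fold changes of 0.40, 0.38 and 0.43. CUEDC1 was not itself called (edgeR adjusted p = 0.0591).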
